A study of Mus musculus with 8 samples.

Results

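The mRNAs of 10 interleukin-1 (IL-1) family genes were followed in mouse spleen: the ligands Il1a, Il1b, Il18 and Il33, the antagonist Il1rn, and the receptor genes Il1r1, Il1r2, Il1rap, Il18r1 and Il1rl1. They were taken by symbol, and all 10 were found, as 20 RefSeq transcripts among 23517 transcripts of 17738 symbols. The samples were spleens of 4 TTPΔARE and 4 wild-type mice, 1 animal each, all untreated C57BL/6 males aged 8 to 12 weeks. Whether the TTPΔARE allele was on 1 or both chromosomes, and whether the wild-type mice were littermates, is not given in the sources used here. Whole spleen RNA was sequenced, so fewer cells of a type and less RNA per cell cannot be told apart. Levels are the authors' FPKM, fragments scaled to transcript length and library size, so that levels of different genes can be set side by side.

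IL-1α and IL-1β bind the receptor IL-1R1, which signals together with the accessory protein encoded by Il1rap. The antagonist encoded by Il1rn occupies IL-1R1 without signalling, and IL-1R2 is a decoy that binds IL-1 but lacks the signalling domain. IL-18 signals through IL-18R1 with IL-18RAP and is held back by the soluble IL-18 binding protein. IL-33 signals through ST2, the product of Il1rl1, with the same accessory protein, and a soluble form of ST2 acts as its decoy. Tristetraprolin (TTP), encoded by Zfp36, speeds the decay of mRNAs that carry AU-rich stretches after their coding region, in the 3′ UTR, and Il1b mRNA is among its known targets. The TTPΔARE allele lacks an AU-rich element in the Zfp36 mRNA itself, which stabilizes that mRNA.

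The AU-rich stretches that the annotated 3′ UTRs carry are shown because TTP binds such letters. Capitals mark the heptamer TATTTAT, searched on the transcript strand with overlapping matches counted, in the GENCODE M21 transcript matched to each RefSeq accession (GRCm38). The first stretch is from Zfp36, on the minus strand at chr7:28376958-28376987, and the sources used here do not give the bases that the allele lacks. The others are from Il1a at chr2:129300102-129300131 and Il1b at chr2:129364801-129364830, both on the minus strand, and from the membrane-form transcript of Il1rl1 at chr1:40462419-40462448 and from Il1rap at chr16:26715674-26715703, both on the plus strand.
Zfp36: ccttTATTTATgacgacttTATTTATtgta
Il1a: ctatgTATTTATaaataTATTTATgataat
Il1b: ttaccTATTTATTTATgTATTTATtgattg
Il1rl1: attgattatctTATTTATctacctttcaaa
Il1rap: aatggagatcaTATTTATaaacttgaaaaa

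In Il1b the 3 heptamers lie within 19 bases of the 3′ UTR, from base 204 to base 222 after the stop codon, and 2 of them overlap. Il1a also had 3 heptamers, the main transcript of Il1rap had 3, and both transcripts of Il1r1 and the membrane-form transcript of Il1rl1 had 2. No match was found in the annotated 3′ UTRs of Il1rn, Il1r2, Il18, Il18r1 and Il33. So 5 of the 10 genes held the heptamer, against 27.6% of the longest 3′ UTRs of 20910 protein-coding genes. Annotated 3′ UTRs of the members ran from 24 bases in Il1r2 to 3864 bases in Il1r1, and the median of the longest 3′ UTRs is 956 bases. A longer 3′ UTR has more positions for a heptamer, and the shares were not matched for length. The nonamer TTATTTATT, present in 7.61% of those 3′ UTRs, was found in Zfp36 and in 0 of the 10 genes.

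The genes also share positions. Il1r2, Il1r1, Il1rl1 and Il18r1 lie in this order within 416.2 kb of chromosome 1, from 40084692 to 40500854 (GRCm38.p6, RefSeq gene table). Il1a and Il1b are neighbours on chromosome 2, from 129299609 to 129371164, and Il1rn lies on the same chromosome at 24336860 to 24351491. Il1rap is on chromosome 16, Il33 on chromosome 19 and Il18 on chromosome 9.

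The labels were checked on Zfp36, which had 57.5, 46.1, 55.1 and 52.9 FPKM in TTPΔARE spleens, against 37.9, 42.1, 44.9 and 36.4 FPKM in wild-type spleens. Its log2 difference of 0.39 passed (SE 0.0848, limma adjusted p = 0.0323), though not without TTPΔARE replicate 1, 3 or 4 or wild-type replicate 1 or 4 (adjusted p = 0.0665 to 0.108) or when erythroid marker level was a covariate (log2 0.28, adjusted p = 0.470). The spleen libraries carried B cell markers at a summed 797.7 to 856.1 FPKM in TTPΔARE and 915.9 to 979.7 FPKM in wild-type. Erythroid markers summed to 233.4 to 436.7 FPKM in TTPΔARE and 111.03 to 251.2 FPKM in wild-type, where only replicate 3 reached the TTPΔARE range. Of 17 tested 2 rose by limma, which called 2.01% of all tested transcripts higher. All 17 had a log2 difference above 0, with a median of 1.304, and the median over all tested transcripts was 0.0031. Summed FPKM per library were 201416 to 215501 in TTPΔARE and 196913 to 212029 in wild-type, and the depth read from the steps between low values was 28350000 to 32250000 fragments.

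In TTPΔARE spleens the decoy receptor mRNA Il1r2 rose, and it was the 1 member transcript that passed. Il1a, Il1b and Il33 stood lower and Il1rn, Il1rap, Il18r1 and Il1rl1 higher in TTPΔARE spleens, without passing. Il18 and Il1r1 differed by less than the spread between spleens. Of the 20 transcripts, 13 of 9 genes had a mean of 0.5 FPKM or more and were tested, while both Il1rl1 transcripts, 2 of Il1rn and 3 of Il1rap were below that level. By limma (Benjamini-Hochberg adjusted p under 0.05 over 16608 transcripts) 1 of 13 was called higher and 0 lower, against 4.00% of all tested transcripts called in either direction. Without adjustment 8 of the 13 had p under 0.05, a share that was 21.1% over all tested transcripts. The groups did not overlap for 3 of the 13, 2 higher and 1 lower, and over all tested transcripts for 12.5%, 6.53% higher and 5.99% lower. Of the 2 higher, Il1rn reached the tested set through its TTPΔARE values, so these counts are a description only.

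**Figure D1:**
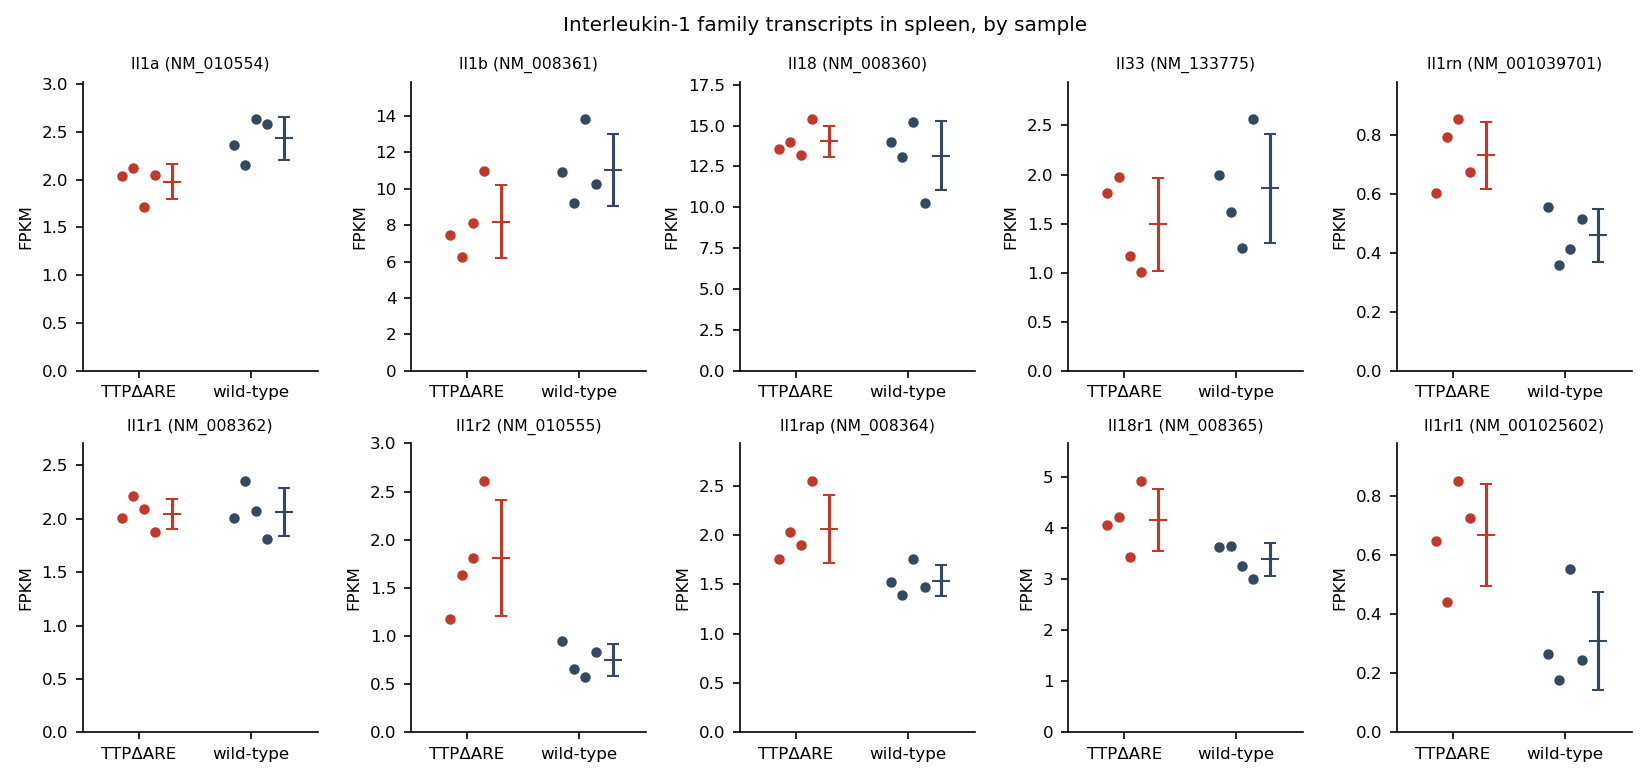
FPKM of each of the 10 genes in every spleen, for the transcript with the highest mean, with TTPΔARE points (red) left of wild-type points (dark) and the mean ± SD beside them (n = 4 each). Il1r2 sits at 1.18 to 2.61 FPKM in TTPΔARE and 0.578 to 0.948 FPKM in wild-type, and Il1a and Il1rn also show no overlap.

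**Figure D2:**
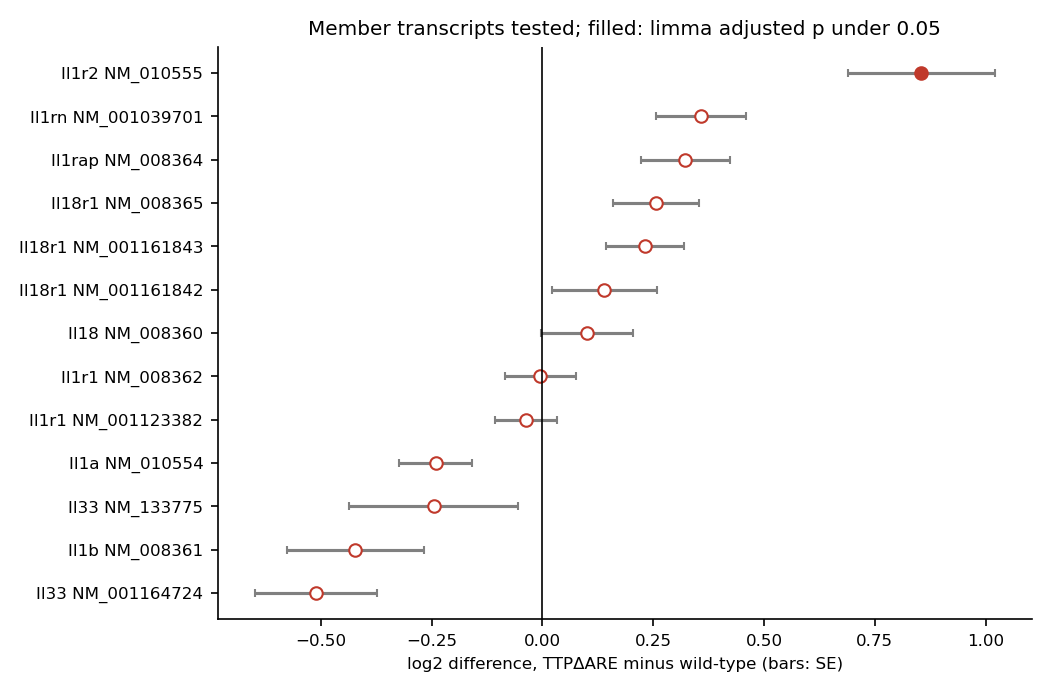
Log2 difference of log2(FPKM + 0.5), TTPΔARE minus wild-type, with its SE, for the 13 transcripts tested. The filled point, Il1r2 at 0.86, passed, and the lowest is an Il33 transcript at -0.51.

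Among the ligands, Il1b encodes the secreted IL-1 that caspase-1 matures. It had 7.47, 6.23, 8.10 and 10.98 FPKM in TTPΔARE spleens, against 10.9, 9.21, 13.8 and 10.2 FPKM in wild-type spleens. TTPΔARE replicate 4 reached the wild-type range, and the other 3 lay below every wild-type spleen. The means were 8.19 ± 2.01 FPKM in TTPΔARE and 11.05 ± 1.97 FPKM in wild-type (SD, n = 4 each), and the log2 difference of -0.42 did not pass (SE 0.154, limma adjusted p = 0.147).

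Il1a, the ligand that is active without caspase-1, had 2.04, 2.12, 1.71 and 2.04 FPKM in TTPΔARE spleens, against 2.36, 2.15, 2.63 and 2.58 FPKM in wild-type spleens. Every TTPΔARE spleen was below every wild-type spleen, and the groups lay closest between TTPΔARE replicate 2 and wild-type replicate 2. The log2 difference was -0.24 and did not pass (SE 0.0817, limma adjusted p = 0.125).

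Il33 encodes an alarmin of stromal and endothelial nuclei, and its 2 transcripts both encode 266 residues and start at different positions. NM_001164724 had 1.42, 1.17, 0.964 and 0.765 FPKM in TTPΔARE spleens, against 2.02, 1.36, 1.604 and 1.99 FPKM in wild-type spleens. Only TTPΔARE replicate 1 reached the wild-type range. Its log2 difference of -0.51 did not pass (SE 0.138, limma adjusted p = 0.0643), but did without TTPΔARE replicate 1 (adjusted p = 0.0434) or wild-type replicate 2 (adjusted p = 0.0477). NM_133775 had 1.82, 1.97, 1.17 and 1.004 FPKM in TTPΔARE spleens, against 1.99, 1.62, 1.25 and 2.56 FPKM in wild-type spleens, with wide overlap. Its log2 difference of -0.25 did not pass (adjusted p = 0.509), and was -0.12 without TTPΔARE replicate 4, -0.11 without wild-type replicate 4 and 0.077 with an erythroid covariate.

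Il33 was set beside markers of stromal and endothelial cells, which moved in both directions. Of 14 stromal and fibroblast markers, all tested, 4 fell (Ccl21a, Cxcl13, Grem1 and Dcn) and Wt1 rose, with a median log2 difference of 0.033. Their summed level was 189.8 to 254.0 FPKM in TTPΔARE and 249.9 to 290.7 FPKM in wild-type. TTPΔARE replicate 4 was lowest in the sum and in both Il33 transcripts. Within wild-type, replicate 4 was lowest in the sum, at 249.9 FPKM, but highest in NM_133775, at 2.56 FPKM. Wild-type replicate 3 had a sum of 271.3 FPKM and the lowest wild-type NM_133775, 1.25 FPKM. Of 10 endothelial markers, 9 were tested, and 4 rose and 1 fell by limma, which called 4.00% of all tested transcripts. The 10 markers summed to 122.5 to 128.1 FPKM in TTPΔARE and 105.1 to 121.1 FPKM in wild-type. The part of these cells in the Il33 values was not tested.

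Il18, a caspase-1 substrate made by macrophages among others, was the most abundant member. It had 13.6, 14.0, 13.2 and 15.4 FPKM in TTPΔARE spleens, against 14.03, 13.1, 15.2 and 10.3 FPKM in wild-type spleens, and the groups overlapped. The log2 difference of 0.10 did not pass (SE 0.104, limma adjusted p = 0.635), and it was -0.0076 without wild-type replicate 4, the lowest spleen. Of 14 markers of monocytes and macrophages, which make both Il1b and Il18, Emr1 rose and Lyz2 fell by limma. Of all tested transcripts 4.00% were called. A log2 difference above 0 was found for 12 of these markers, and the median of all 14 was 0.22. Their summed level was 1305 to 1378 FPKM in TTPΔARE and 1267 to 1581 FPKM in wild-type, and its largest component was Lyz2, at 462.4 ± 16.3 FPKM in TTPΔARE and 652.5 ± 86.8 FPKM in wild-type (SD, n = 4 each). The part of these cells in the Il1b and Il18 values was not tested.

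The antagonist Il1rn was weakly expressed and had 3 transcripts. NM_001039701, which encodes the secreted precursor of 178 residues, had 0.602, 0.792, 0.853 and 0.676 FPKM in TTPΔARE spleens, against 0.555, 0.360, 0.413 and 0.514 FPKM in wild-type spleens. Every TTPΔARE spleen was above every wild-type spleen, although TTPΔARE replicate 1 and wild-type replicate 1 were close. The log2 difference was 0.36 and did not pass (SE 0.101, limma adjusted p = 0.0748), and the transcript reached the 0.5 FPKM level through its TTPΔARE values, since the wild-type mean was 0.461. These values stand for about 22.4 to 53.7 fragments per library. NM_031167, with a product of 159 residues, also did not overlap, at 0.364 to 0.604 FPKM in TTPΔARE and 0.207 to 0.360 FPKM in wild-type. NM_001159562 stood at 0.410 ± 0.0920 FPKM in TTPΔARE and 0.402 ± 0.127 FPKM in wild-type (SD, n = 4 each).

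Among the receptors, the decoy Il1r2 rose. It had 1.18, 1.64, 1.81 and 2.61 FPKM in TTPΔARE spleens, against 0.948, 0.656, 0.578 and 0.834 FPKM in wild-type spleens. All TTPΔARE spleens were above all wild-type spleens, TTPΔARE replicate 4 was highest and wild-type replicate 3 lowest. The means were 1.81 ± 0.598 FPKM in TTPΔARE and 0.754 ± 0.168 FPKM in wild-type (SD, n = 4 each), 2.40-fold in FPKM, from about 53.7 to 119.6 fragments in TTPΔARE libraries and 24.02 to 38.1 in wild-type libraries. Its difference in log2(FPKM + 0.5), where the added 0.5 shrinks the change of weak transcripts, was 0.86 (SE 0.166, limma adjusted p = 0.0190). The call was lost without TTPΔARE replicate 3 (adjusted p = 0.0648), without wild-type replicate 4 (adjusted p = 0.0516) and with erythroid RNA as a covariate (log2 0.83, adjusted p = 0.269).

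Neutrophils are a main source of Il1r2, and neutrophil markers stood mostly higher in TTPΔARE spleens. Of 15 neutrophil markers 14 were tested, and Retnlg and Mmp8 rose and 0 fell by limma, which called 4.00% of all tested transcripts. Of the 14, 13 had a log2 difference above 0, and the median of all 14 was 0.28. Retnlg was at 21.1 to 30.9 FPKM in TTPΔARE and 9.98 to 16.8 FPKM in wild-type, and Mmp8 at 1.46 to 3.69 FPKM in TTPΔARE and 0.598 to 1.198 FPKM in wild-type, both without overlap. The summed level, carried mainly by S100a8 and S100a9, did overlap, at 162.9 to 283.1 FPKM in TTPΔARE and 114.0 to 313.1 FPKM in wild-type. Within TTPΔARE, replicates 3 and 4 had the highest neutrophil sums, 281.7 and 283.1 FPKM, and the highest Il1r2. Wild-type replicate 3 had the highest sum of all 8 spleens and the lowest Il1r2. It was also the highest of all 8 in S100a9, Mmp9, Camp, Ltf, Ngp, Elane and Mpo. Its Retnlg and Mmp8, at 16.1 and 1.198 FPKM, were below those of every TTPΔARE spleen, as in the other wild-type spleens. The part of neutrophils in the Il1r2 values was not tested.

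The signalling receptor Il1r1 differed by less than its error. Transcript NM_008362 averaged 2.05 ± 0.140 FPKM in TTPΔARE and 2.06 ± 0.224 FPKM in wild-type (SD, n = 4 each). Its log2 difference was -0.0046 with an SE of 0.0803 (limma adjusted p = 0.984), and its sign turned without TTPΔARE replicate 1 or 4 or wild-type replicate 2, and with an erythroid covariate. The other transcript, NM_001123382, differed by -0.036 (limma adjusted p = 0.820).

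The accessory protein gene Il1rap was carried mainly by NM_008364, which encodes the full receptor chain of 570 residues. It had 1.75, 2.03, 1.90 and 2.55 FPKM in TTPΔARE spleens, against 1.53, 1.39, 1.75 and 1.47 FPKM in wild-type spleens. TTPΔARE replicate 1 and wild-type replicate 3 were level, and the other TTPΔARE spleens were higher. The log2 difference of 0.32 did not pass (SE 0.10003, limma adjusted p = 0.0986), and it was 0.18 with an erythroid covariate. NM_134103, with a truncated product of 360 residues, stood at 0.434 ± 0.122 FPKM in TTPΔARE and 0.379 ± 0.0528 FPKM in wild-type. The 2 transcripts with longer products of 640 and 685 residues were at 0.131 to 0.339 FPKM over all spleens.

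Il18r1, the ligand-binding chain of the IL-18 receptor on T and NK cells, had 3 transcripts. The longest, NM_008365 with 537 residues, had 4.06, 4.21, 3.43 and 4.92 FPKM in TTPΔARE spleens, against 3.63, 3.65, 3.25 and 2.997 FPKM in wild-type spleens. Only TTPΔARE replicate 3 was within the wild-type range. Its log2 difference of 0.26 did not pass (SE 0.0980, limma adjusted p = 0.164), nor did those of NM_001161843 (0.23) and NM_001161842 (0.14), which encode 372 residues. Of 12 NK and T cell markers tested, 0 passed by limma, against 4.00% of all tested transcripts. These markers summed to 109.7 to 140.1 FPKM in TTPΔARE and 102.9 to 121.9 FPKM in wild-type. TTPΔARE replicate 4 was highest in that sum and in NM_008365.

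Il1rl1 encodes ST2, the IL-33 receptor of mast cells, basophils, group 2 innate lymphoid cells and some regulatory T cells. The membrane-form transcript NM_001025602, with 567 residues, had 0.649, 0.441, 0.852 and 0.727 FPKM in TTPΔARE spleens, against 0.264, 0.176, 0.551 and 0.245 FPKM in wild-type spleens. Wild-type replicate 3 lay within the TTPΔARE range, and the other 3 wild-type spleens lay below it. The means were 0.667 ± 0.172 FPKM in TTPΔARE and 0.309 ± 0.166 FPKM in wild-type (SD, n = 4 each), 2.16-fold in FPKM. Its mean over all spleens, 0.488 FPKM, was just below the level for testing, and with no such level the log2 difference of 0.54 did not pass (limma adjusted p = 0.0894). The soluble-form transcript NM_010743, with 337 residues, was at 0.0919 to 0.273 FPKM in TTPΔARE and 0.0212 to 0.125 FPKM in wild-type, which stands for about 1.77 to 23.1 fragments.

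Mast cell and basophil markers summed to 11.5 to 14.0 FPKM in TTPΔARE and 7.39 to 10.1 FPKM in wild-type, without overlap. Of 11 such markers 5 were tested and Kit rose by limma, which called 4.00% of all tested transcripts. None of the 11 was at 0 in every spleen. Kit, Gata2 and Hdc, which progenitors also express, made up most of the sum. The log2 differences of the mast cell and basophil products Cpa3, Mcpt8, Ms4a2 and Cma1 were 0.074, 0.073, 0.0097 and -0.078. Those of Mcpt4, Prss34, Tpsb2 and Fcer1a were 0.55, 0.31, 0.28 and 0.11. Of these products only Cpa3 and Cma1 reached the level for testing, and all of them overlapped between the groups. Wild-type replicate 3, the wild-type spleen highest in Il1rl1, was also the one highest in erythroid markers, at 251.2 FPKM. It was highest of the wild-type spleens in neutrophil and endothelial markers too, at 313.1 and 121.1 FPKM. The part of these cells in the Il1rl1 values was not tested.

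**Figure D3:**
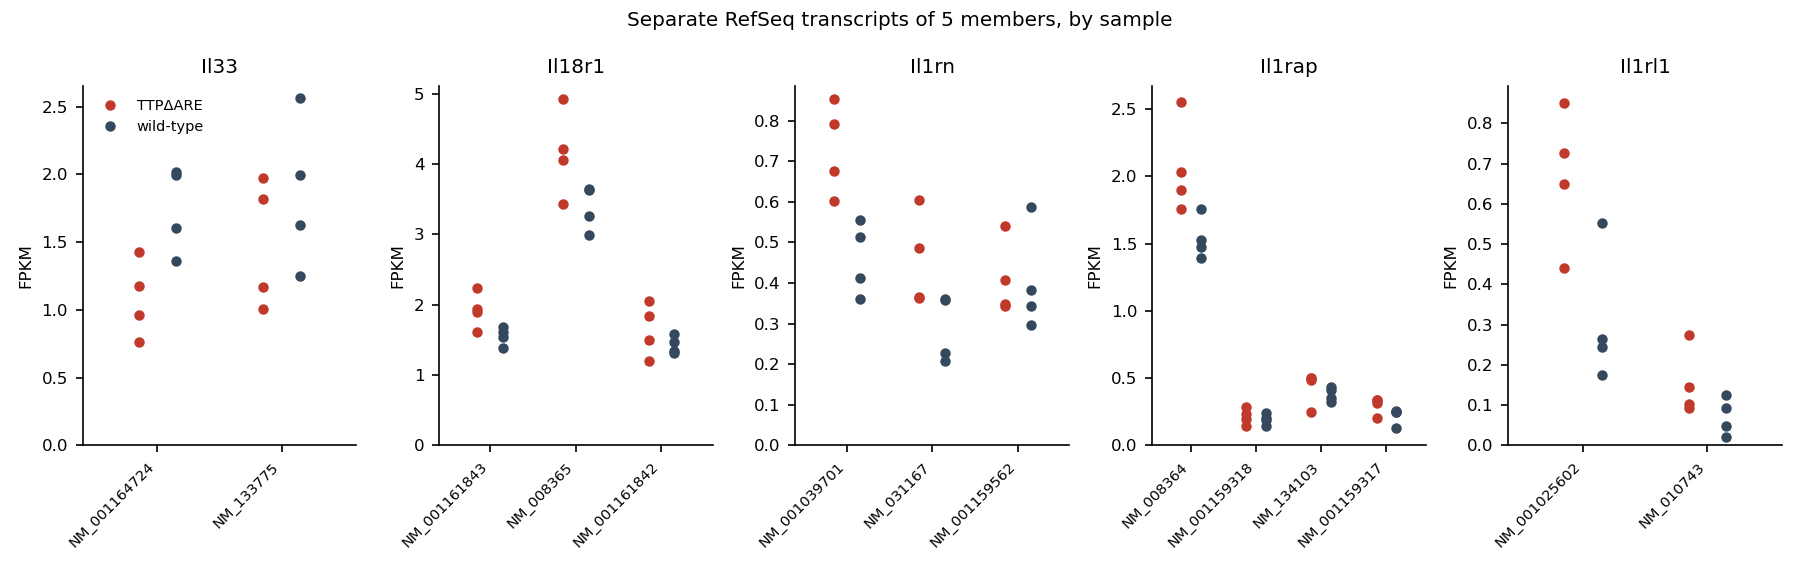
FPKM of each RefSeq transcript of Il33, Il18r1, Il1rn, Il1rap and Il1rl1 in every spleen, with TTPΔARE points (red) left of wild-type points (dark). Most of the level of Il1rap and Il1rl1 is in 1 transcript, NM_008364 and NM_001025602, and for Il33 the groups are farther apart in NM_001164724 than in NM_133775.

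The shares of the transcripts were compared because reads of shared exons cannot be assigned to 1 transcript with certainty, and the sources used here do not say how the authors' counting split them. NM_008364 held 65.1 to 74.6% of the summed Il1rap level in TTPΔARE and 63.0 to 68.6% in wild-type. The membrane form held 75.7 to 87.6% of Il1rl1 in TTPΔARE and 72.4 to 89.2% in wild-type. NM_001164724 held 37.3 to 45.1% of Il33 in TTPΔARE and 43.8 to 56.1% in wild-type. All these ranges overlapped between the genotypes.

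In TTPΔARE spleens the mean of Il1r2, 1.81 FPKM, was between those of Il1a, 1.98 FPKM, and Il33, 1.49 FPKM. Each level here is that of the gene's transcript of highest mean. Il1r1, Il33, Il1rn, Il18r1, Il1rap and Il1rl1 had further transcripts, and the other Il1r1 transcript averaged 2.07 FPKM in wild-type. Whole genes may therefore rank otherwise. In wild-type spleens the levels gave this order. Il18 and Il1b overlapped at the top, with 13.2 ± 2.11 and 11.05 ± 1.97 FPKM. Il18r1 stood apart at 3.38 ± 0.314 FPKM, above Il1a at 2.43 ± 0.222 FPKM. From Il1a through Il1r1, Il33 and Il1rap, at 1.54 ± 0.155 FPKM, each gene overlapped with the next. Il1r2 stood apart below them, and Il1rn and Il1rl1 overlapped at the bottom.

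The balance of ligand to antagonist and decoy was compared spleen by spleen, using the transcript of highest mean for each gene. In TTPΔARE spleens there was less Il1a and Il1b mRNA per Il1rn mRNA and per Il1r2 mRNA, and less Il1r1 mRNA per Il1r2 mRNA. Of 8 ratios 5 were lower and 0 higher at an adjusted p under 0.05, and 3 did not pass. The test was an exact two-sided permutation test of log2((FPKM + 0.5)/(FPKM + 0.5)) over the 70 assignments of the spleens, adjusted by Benjamini-Hochberg over the 8 ratios. The 5 ratios that passed each gave an exact permutation p of 0.0286, the smallest this test can give, and an adjusted p of 0.0457. They are not independent, since 3 share Il1r2 and 2 share Il1rn. In the transcripts used, Il1a, Il1rn and Il1r2 did not overlap between the groups in their own values. That fixed the smallest p for Il1a to Il1rn and Il1a to Il1r2 before the ratios were tested. The ratios were also chosen with earlier results of these data known, so these p-values are a description. The adjusted p depends on all 5 reaching the smallest p together, and with fewer there none would have passed.

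The ratio of Il1b to the decoy Il1r2 changed most. In FPKM it was 6.34, 3.81, 4.47 and 4.204 in TTPΔARE spleens, against 11.5, 14.03, 23.9 and 12.3 in wild-type spleens. The lowest wild-type ratio was well above the highest TTPΔARE ratio. The log2 ratio differed by -1.28, from means of 1.92 ± 0.244 in TTPΔARE and 3.20 ± 0.357 in wild-type (SD, n = 4 each). Il1a to Il1r2 was 0.782 to 1.73 in FPKM in TTPΔARE and 2.49 to 4.55 in wild-type, a log2 difference of -1.10.

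The ratio of the signalling receptor Il1r1 to the decoy Il1r2 was 1.71, 1.35, 1.16 and 0.719 in TTPΔARE spleens, against 2.12, 3.59, 3.58 and 2.17 in wild-type spleens. Every TTPΔARE ratio was below every wild-type ratio, and TTPΔARE replicate 4 was lowest. The ratio uses 1 of the 2 Il1r1 transcripts, which held 49.1 to 52.4% of the summed Il1r1 level in TTPΔARE and 47.9 to 52.8% in wild-type. The log2 ratio differed by -0.86, beside log2 differences of -0.0046 for Il1r1 and 0.86 for Il1r2 themselves.

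Il1b to the antagonist Il1rn was 12.4, 7.86, 9.49 and 16.3 in TTPΔARE spleens, against 19.7, 25.6, 33.4 and 19.9 in wild-type spleens. TTPΔARE replicate 4 came nearest to the wild-type spleens, and the groups did not overlap. The log2 ratio differed by -0.78, and that of Il1a to Il1rn by -0.60, at 2.01 to 3.39 in FPKM in TTPΔARE and 4.25 to 6.37 in wild-type. In these 4 ligand ratios the means of Il1a and Il1b were lower and those of Il1rn and Il1r2 higher in TTPΔARE. Of these genes only Il1r2 passed by itself, and Il1b overlapped between the groups.

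The other 3 ratios did not pass. Il33 to Il1rl1 was 2.80, 4.47, 1.38 and 1.38 in TTPΔARE spleens, against 7.54, 9.24, 2.27 and 10.5 in wild-type spleens, where wild-type replicate 3 lay inside the TTPΔARE range (log2 difference -0.78, exact permutation p = 0.114, adjusted p = 0.131). Il18 to the IL-18 binding protein Il18bp was 1.71 to 1.91 in TTPΔARE and 1.43 to 2.01 in wild-type, with complete overlap (log2 difference 0.057, exact permutation p = 0.657). Il18bp itself stood at 7.87 ± 0.232 FPKM in TTPΔARE and 7.63 ± 0.671 FPKM in wild-type (SD, n = 4 each). The ratio of membrane to soluble Il1rl1 transcript gave a log2 difference of 0.35 with the added 0.5 and -0.048 without it, and its direction cannot be read at these levels (exact permutation p = 0.0571 with the added 0.5).

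**Figure D4:**
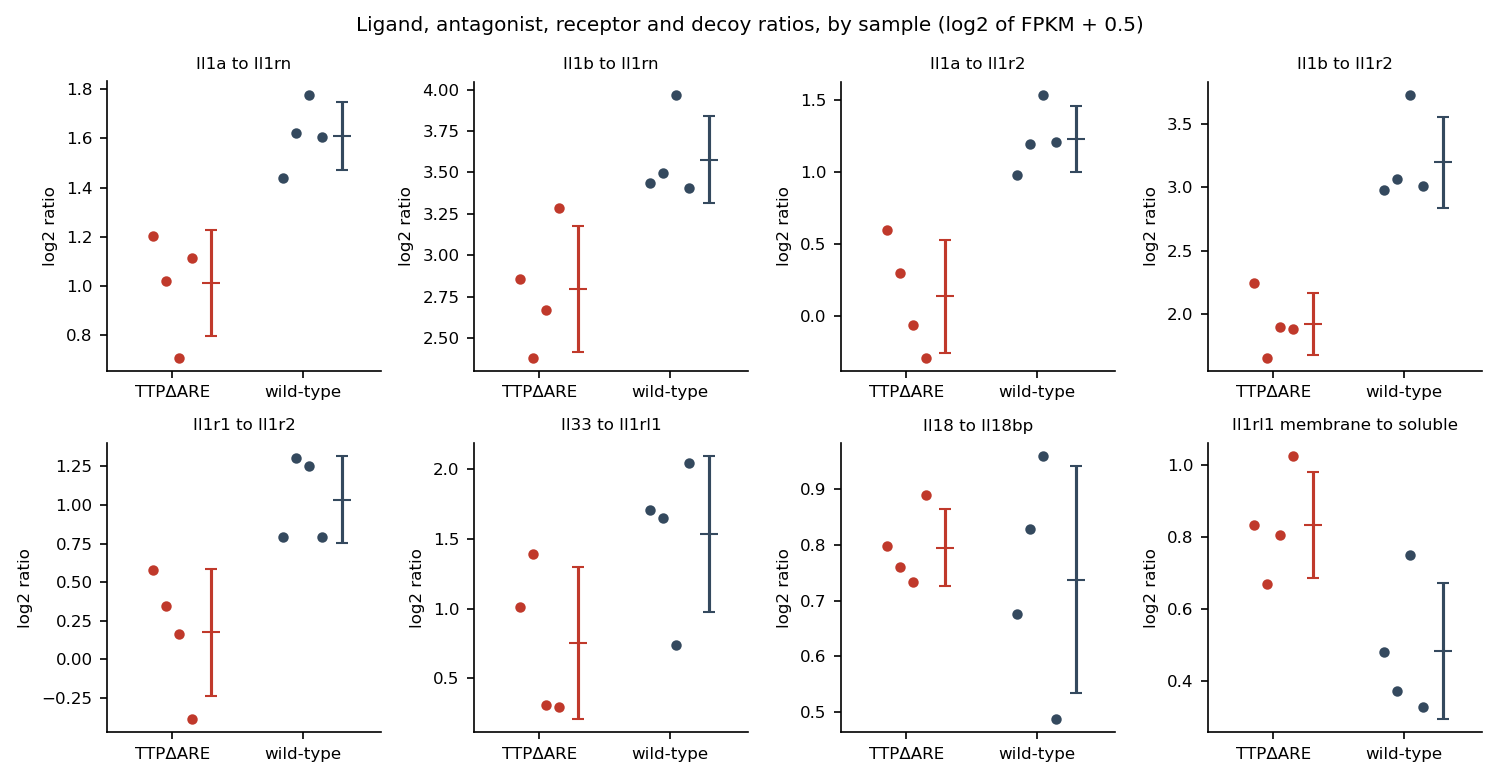
Log2 ratio of FPKM + 0.5 of each pair in every spleen, with TTPΔARE points (red) left of wild-type points (dark) and the mean ± SD beside them (n = 4 each). In Il1a or Il1b to Il1rn or Il1r2, and in Il1r1 to Il1r2, every TTPΔARE spleen is below every wild-type spleen.

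None of the other tested genes of the pathway passed. Of 62 listed genes 7 had no row, 6 were below 0.5 FPKM and 49 were tested. By limma 0 of the 49 passed, against 4.00% of all tested transcripts. An unadjusted p under 0.05 was found for 15, a share that was 21.1% over all tested transcripts. Their median log2 difference was -0.013, and that over all tested transcripts was 0.0031. A difference above 0 was found for 24 genes and below 0 for 25.

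Of the further ligands only Il1f9, which encodes IL-36γ, was tested. It averaged 1.93 ± 0.420 FPKM in TTPΔARE and 1.23 ± 0.306 FPKM in wild-type (SD, n = 4 each), a log2 difference of 0.49 (limma adjusted p = 0.0785). Its receptor gene Il1rl2 stood at 1.303 ± 0.252 FPKM in TTPΔARE and 1.75 ± 0.107 FPKM in wild-type (log2 -0.33, adjusted p = 0.0880). Sigirr, an inhibitory receptor of the family, had a log2 difference of -0.22 (adjusted p = 0.169), and Il18rap, the second chain of the IL-18 receptor, one of 0.11.

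All 16 inflammasome and processing genes were tested, and none passed by limma, with 4 at an unadjusted p under 0.05. Casp1, which cleaves the precursors of IL-1β and IL-18, averaged 18.8 ± 1.33 FPKM in TTPΔARE and 18.7 ± 1.38 FPKM in wild-type (SD, n = 4 each). The sensors Nlrp1b and Aim2 had log2 differences of 0.26 and -0.22 (adjusted p = 0.114 and 0.132). Txnip, a thioredoxin inhibitor that binds NLRP3, had the highest level of the group and a log2 difference of 0.34 (adjusted p = 0.0816).

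Of 17 receptor signalling genes, all tested, none passed by limma, with 5 at an unadjusted p under 0.05. The kinase genes Map3k8, Irak2 and Ikbkb had log2 differences of -0.30, -0.17 and -0.16 (adjusted p = 0.0931, 0.135 and 0.141). Tab2, an adaptor of the TAK1 kinase, was the most abundant and had a log2 difference of 0.040. Of the 17 genes 13 had a difference below 0.

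Of 18 genes known to be induced by IL-1, 11 were tested and none passed by limma, with 3 at an unadjusted p under 0.05. Il6, Cxcl1, Cxcl2, Ptgs2, Csf2 and Saa3 were below 0.5 FPKM. Nfkbiz, an NF-κB cofactor, and Zc3h12a, an endonuclease that degrades cytokine mRNAs, had log2 differences of -0.32 and -0.24 (adjusted p = 0.0609 and 0.0858). Lcn2, also on the neutrophil list, stood at 4.81 ± 1.62 FPKM in TTPΔARE and 2.62 ± 2.56 FPKM in wild-type (SD, n = 4 each), a log2 difference of 0.996 (adjusted p = 0.182). Nfkbia, the inhibitor of NF-κB, was the most abundant and differed by 0.11.

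**Figure D5:**
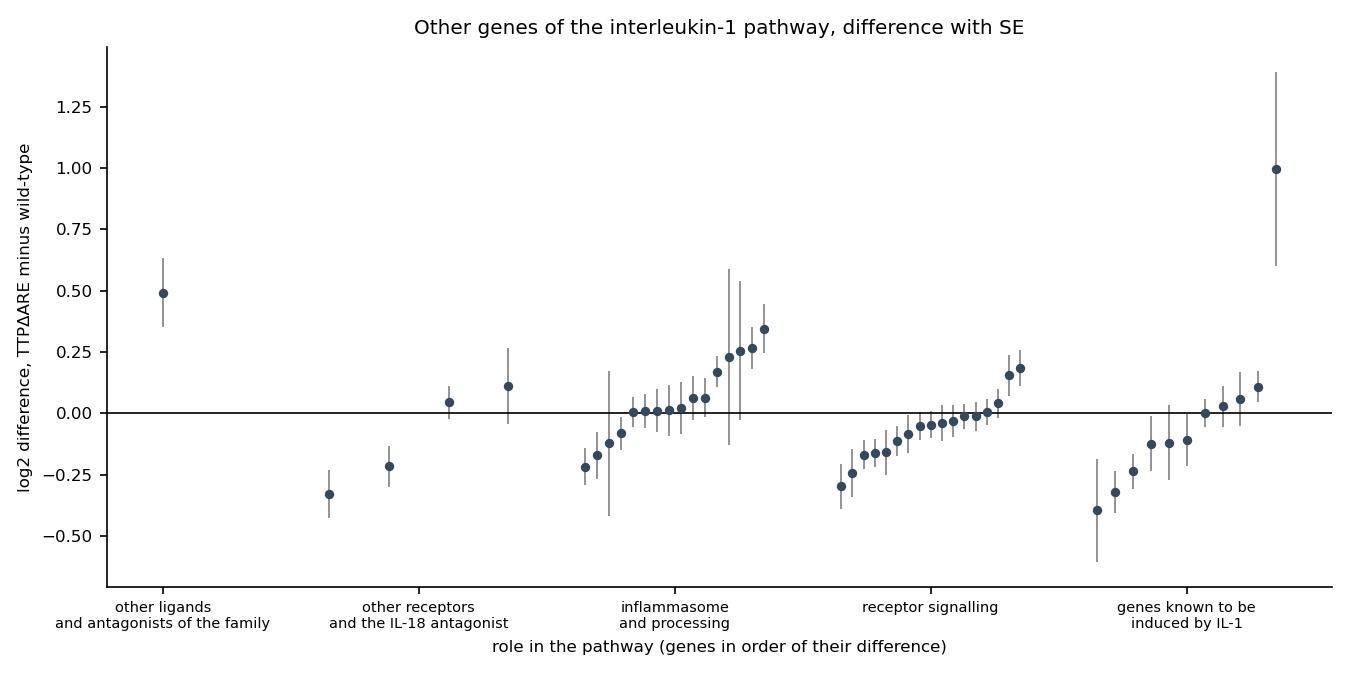
Log2 difference, TTPΔARE minus wild-type, with its SE, of the 49 tested genes of the pathway by role. None passed by limma, and the highest point, Lcn2 at 0.996, has the widest error bar.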

How the data were processed

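For 4 TTPΔARE and 4 wild-type spleens the authors deposited FPKM, 1 value per RefSeq transcript and spleen. The submitters' processing notes name BWA and the mm10 build. How reads were counted, with which annotation and strand setting, and how shared reads were split is not stated there. With no counts, a log scale model was used.

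Transcripts whose mean over all spleens reached 0.5 FPKM, 16608 of 23517, were tested as log2(FPKM + 0.5) in limma 3.58.1 under R 4.3.3 (variance trend, two-sided, Benjamini-Hochberg threshold 0.05), checked on simulated data. Ratios were tested with SciPy 1.17.1. Depth was the value at which most low FPKM were whole fragments of the GENCODE M21 transcript length. It left 57.2 to 60.6% of them not whole within 0.05, so fragment numbers are approximate. All 20 member transcripts matched GENCODE M21 through their accessions. Tables used Python 3.11.15 with pandas 2.3.3.

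Named pathway genes were those that passed and, in each role, up to 3 of lowest p and the most abundant. Likeness was ranked by root mean square difference. Some named in small counts, Casp1 and some markers were chosen after their values were seen. Members, lists and tests were chosen with earlier results of these data known. Alternatives were other pseudocounts, filters, scalings, variance settings, weights per spleen, a threshold of 0.1, a covariate of erythroid marker level, 1 row per symbol, summed rows and leaving out each spleen.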

Additional observations from a re-analysis of the deposited data

Results flagged for a closer look

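Of 56 groups of 4 spleens examined, member transcripts and ratios together, 5 held a spleen whose gap to its nearest neighbour took most of the group's range. For independent groups of normal values chance gives this in about 1 of 20. The groups here share genes and spleens, so that rate is only a rough guide. TTPΔARE replicate 1 was low in 2 minor Il1rap transcripts, at 0.251 FPKM for NM_134103 and 0.201 FPKM for NM_001159317. Wild-type replicate 1 was low in NM_001159317, at 0.131 FPKM, about 11.9 fragments. Wild-type replicate 3 was high in the log2 ratio of Il1b to Il1rn, at 3.97, and in that of Il1b to Il1r2, at 3.73. That spleen had the highest Il1b, 13.8 FPKM, and the lowest Il1r2, 0.578 FPKM, of its group. Without it the Il1b to Il1r2 difference was -1.10, against -1.28 with all spleens.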

How the results depend on the processing

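The count of member transcripts called higher, 1, was 0 with an erythroid covariate and 3 at a threshold of 0.1, and that called lower, 0, was 1 at a threshold of 0.1, where Il1rn NM_001039701 and Il1rap NM_008364 passed higher and Il33 NM_001164724 lower. With 1 spleen left out it was 0 to 1 in either direction, 0 higher without TTPΔARE replicate 3 or wild-type replicate 4, and 1 lower, Il33, without TTPΔARE replicate 1 or wild-type replicate 2. Il1r2 kept its direction under all 20 alternatives, at 0.66 to 1.13. Of the 5 ratios that passed, all kept their call in the 6 processing alternatives, which were pseudocounts, scalings and summed rows. The exact p stays at its smallest value as long as the groups do not overlap. The erythroid covariate, with which the Il1r2 call was lost, was not applied to the ratios. With 1 spleen left out the exact test cannot go below 0.0571, so no ratio could pass. Those ranges were -0.66 to -0.50 for Il1a to Il1rn, -0.94 to -0.64 for Il1b to Il1rn, -1.25 to -0.95 for Il1a to Il1r2, -1.39 to -1.10 for Il1b to Il1r2 and -0.99 to -0.67 for Il1r1 to Il1r2. Il18 to Il18bp ran from -0.026 to 0.13. Membrane to soluble Il1rl1 was -0.048 with no pseudocount. Signs also turned for Il1r1 NM_008362 (0.086 with the erythroid covariate, -0.052 to 0.049 with 1 spleen left out), Il33 NM_133775 (0.077 with that covariate) and Il18 (-0.0076 to 0.17 with 1 spleen left out, below 0 without wild-type replicate 4). Causes were not tested. The low fragment numbers of Il1rn, Il1rl1 and the minor Il1rap transcripts limit their values. No paired analysis was possible because the labels give no pairing of spleens.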

Other observations

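Among 13915 transcripts averaging 1 FPKM or more, the genes whose centred log2 values were closest to those of Il1r2 over the 8 spleens were Ccr1, Tlr3, Fkbp5, Pcp4 and Epcam. Their root mean square difference from Il1r2 was 0.180 to 0.209, against 0.497 for Il1r2 around its own mean. Ccr1, a receptor for inflammatory CC chemokines, averaged 4.17 ± 0.536 FPKM in TTPΔARE and 2.36 ± 0.247 FPKM in wild-type (SD, n = 4 each). Fkbp5, a co-chaperone of the glucocorticoid receptor, averaged 15.4 ± 5.43 FPKM in TTPΔARE and 9.59 ± 0.612 FPKM in wild-type. The closest to Il1rl1 were Ubac1, Bcl2l1, Dhrs11, Gypc and Samd14, at 0.0737 to 0.0932 against 0.345 for Il1rl1 itself. Gypc encodes the red cell membrane protein glycophorin C, and Bcl2l1 a survival factor that red cell precursors need. The closest to Il1b were Smim8, Rpa3, Cuedc2, Pilrb2 and Btg3, at 0.159 to 0.185 against 0.323 for Il1b itself. Genes chosen for likeness among so many over 8 spleens are a description.

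Each of the 10 genes was also read by spleen, in its transcript of highest mean. TTPΔARE replicate 4 was the highest of its group for 5 of the 10 genes, Il18, Il18r1, Il1b, Il1r2 and Il1rap. The same spleen was the lowest for Il1r1 and Il33. Wild-type replicate 3 was the highest of its group for 5, Il18, Il1a, Il1b, Il1rap and Il1rl1, and the lowest for Il1r2 and Il33.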
